A study of Saccharomyces cerevisiae with 8 samples.

Results

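Budding yeast (Saccharomyces cerevisiae) lacking YAP1 (yap1d) was compared with wild type (WT) in the haploid laboratory strain BY4741, both after hydroxyurea. The columns taken were the 4, of 8 in the series, that carry the strain name BY4741. They come from 2 of the 4 spotted slides, numbered 19 and 20. Each slide has 1 column titled fort and 1 titled faible (French for strong and weak), treated here as 2 scans. On slide 19 the yap1d RNA was in channel 1 and the WT RNA in channel 2, and on slide 20 the channels were exchanged. All cultures, yap1d and WT, were grown in YPD, a rich medium, until the optical density was 0.5, and then kept in 200 mM hydroxyurea for 2 h. BY4741 is of mating type a, and its yap1d and WT forms both lack MET17, HIS3, LEU2 and URA3. The other 4 columns, from slides 21 and 22, hold yap1d and WT under the same treatment in BY4742, which is of mating type alpha and lacks LYS2 in place of MET17. The labels do not say how YAP1 was removed, how many clones were used, or whether the slides came from separate cultures. The p-values therefore do not measure a known spread between cultures. They rest on how far the difference between the channels varied between the BY4741 and BY4742 slides, which may be technical. With no culture without hydroxyurea analysed here, a value sets the genotypes against each other in the drug and does not measure the response to it.

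Yap1 is a transcription factor of the bZIP family. On oxidation of its cysteines it stays in the nucleus and activates genes of the thioredoxin and glutathione systems, which reduce peroxides and protein disulphides, as well as transporters that export drugs. Hydroxyurea inhibits ribonucleotide reductase, the enzyme that makes deoxyribonucleotides, and slows DNA synthesis. BY4741 cannot incorporate sulphide into homocysteine because it lacks Met17, so it depends on methionine from the medium, while the thioredoxins that Yap1 controls also feed electrons to sulphate assimilation.

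Each of 6912 array features had a deposited log ratio, taken to be of base 2. Features with a single gene name represented 3127 genes, and 3568 features had no single name. These made 6695 units in all. No source used here says which channel is on top of the ratio. The sign was taken as likely from BY4742, such that TRX2 and TRR1, known targets of Yap1, lie below 0 there, and neither gene is evidence for it. Hence a negative value means lower in yap1d than in WT. Values of single scans keep the difference between the channels, which is large on these slides: over all units it had an SD of 0.467, against 0.177 for the yap1d effect in BY4741. Slides 19 and 20, before they were turned to yap1d over WT, still correlated at 0.769 over features, although they had opposite orientation. The mean of both slides cancels a channel effect that they share. The SD given beside a mean (n = 2 slides) is that of slides 19 and 20 after removal of the channel effect measured on the BY4742 slides. An error in that channel effect enters the corrected slides with opposite signs, and the SD is by construction the same in BY4742. The corrected slides 19 and 20 correlated at 0.0267 over all units.

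The mating type and marker genes were set against the label BY4741. Before turning, the ratio of channel 1 over channel 2 for MET17, the gene absent from BY4741, was -0.71 on slide 19 and -0.77 on slide 20, against 0.43 and 0.32 in BY4742. The ratio of STE3, the receptor for a-factor made by alpha cells, was likewise low on both BY4741 slides, averaging -0.84 in BY4741 and 0.35 in BY4742. LYS2, absent from BY4742, had a mean of 0.36 in BY4741 and -0.20 in BY4742. MFA1 and MFA2, the genes of the a-factor pheromone, had means of 0.26 and 0.40 in BY4741, against -0.59 and -0.26 in BY4742. As means, these 5 genes thus had the lower ratio in the background that lacks the gene or should not express it. Both channels of a slide hold the same background, so the ratios do not measure whether a gene was present or expressed. For MFA1 and MFA2 the means join slides 19 and 20 of opposite sign before turning. AGA2, another gene of a cells, was at -0.63 on slide 19 and close to the slide median on slide 20. For MF(ALPHA)1, which encodes alpha-factor, the ratio was -0.71 in each background. HIS3, LEU2, URA3, STE2 and BAR1 were not among the single-named features. No such feature was available for YAP1 either, so its deletion was not checked here.

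**Figure D1:**
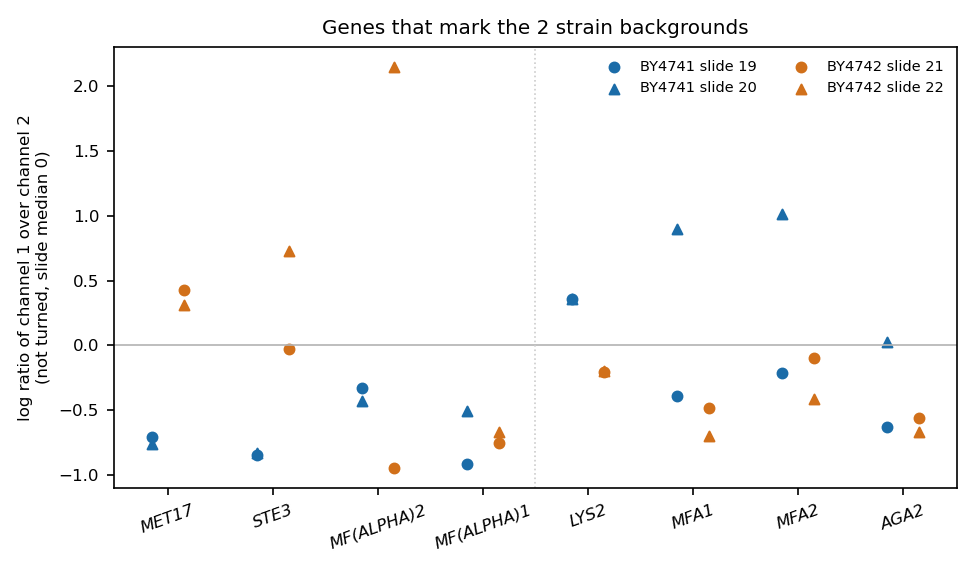
Log ratio of channel 1 over channel 2 (vertical axis, not turned, slide median at 0) for genes that mark the strain backgrounds (horizontal axis). Blue symbols are the BY4741 slides 19 (circle) and 20 (triangle), and orange symbols the BY4742 slides 21 and 22. MET17 is at -0.71 and -0.77 on the BY4741 slides and above 0 on both BY4742 slides.

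In BY4741 a limma fit called 29 named genes lower and 12 higher in yap1d, at a Benjamini-Hochberg adjusted p under 0.05 over all units. That is 0.927% of the 3127 named genes lower and 0.384% higher, and 1.17% of all 6695 units in either direction. Of the features without a single name, 14 were lower (0.392%) and 23 higher (0.645%). The 4 largest falls were in GPX2, a glutathione peroxidase, YNL134C, of the alcohol dehydrogenase family, TRX2, a thioredoxin, and SOD1, a superoxide dismutase. The largest rises were in GDH1, a glutamate dehydrogenase, and HEM13, an enzyme of haem synthesis. The called genes had standard errors of 0.092 to 0.118, and the smallest called size was 0.49 in log2. The variance of the fit rests on 1 residual degree of freedom for each unit, moderated by a prior of 7.48 degrees. The calls depended on the scan: with the fort columns alone 10 genes were lower and 2 higher, and with the faible columns alone 100 and 77. The prior moved too, to 5.08 degrees for fort and to infinity for faible, where all units then share 1 variance. If the ratio is the other way up, all directions given here reverse, with 12 genes lower and 29 higher.

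**Figure D2:**
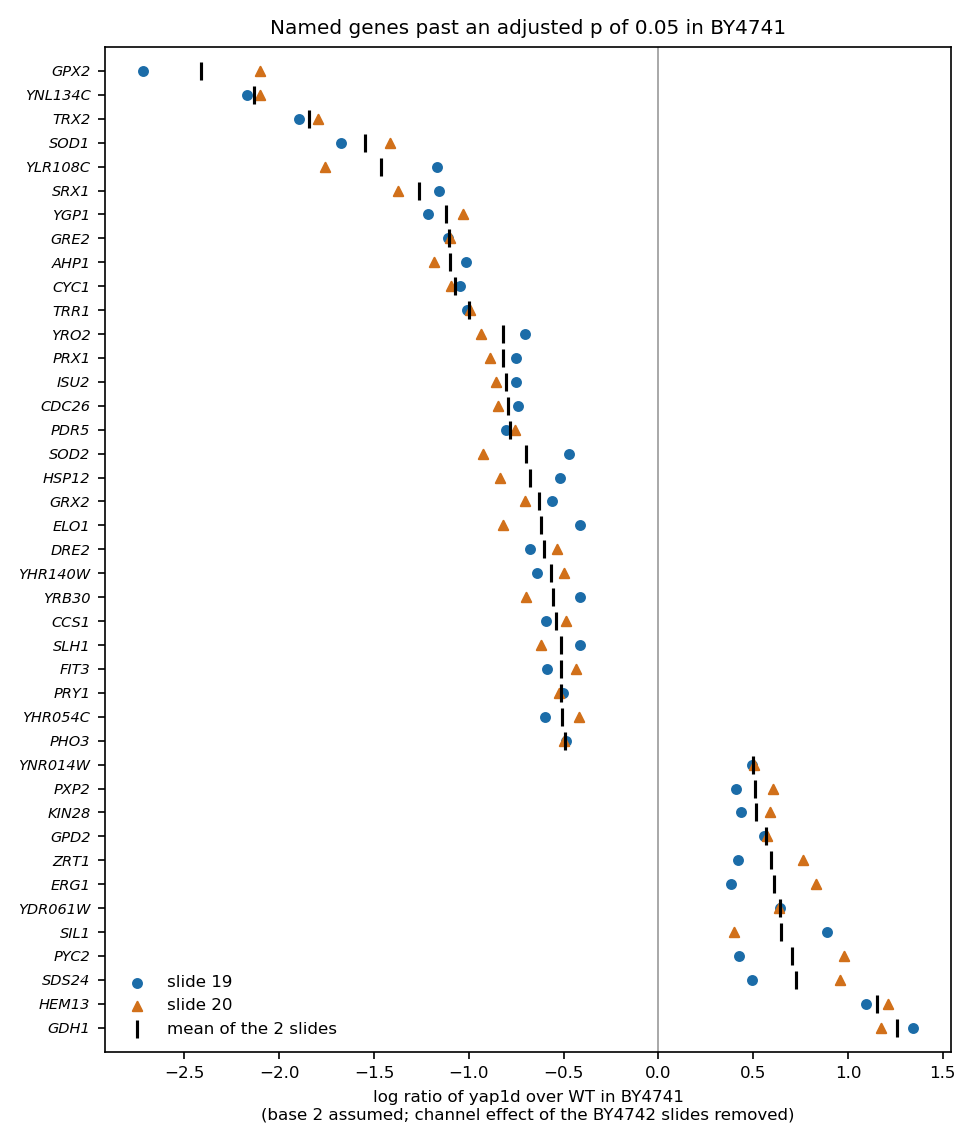
The 41 named genes past the threshold in BY4741 (vertical axis), with the log2 ratio of yap1d over WT (horizontal axis) on slide 19 (circles) and slide 20 (triangles) after removal of the channel effect of the BY4742 slides, and the mean (bars). Values run from -2.41 for GPX2 to 1.26 for GDH1, and no gene has its slides on opposite sides of 0.

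The thioredoxin system held 5 of the falls among 9 measured genes, and its median was -0.82, against -0.008 over all named genes. The fort columns alone gave 3 falls and a median of -0.46. TRX2, the thioredoxin controlled by Yap1, read -1.41 (fort) and -1.47 (faible) on slide 19, and -2.33 (fort) and -2.17 (faible) on slide 20. Its mean was -1.85 ± 0.072, a 3.59-fold fall if the base is 2, with an adjusted p of 4.64e-05 in limma. TRR1, the thioredoxin reductase that recycles it, averaged -1.0 ± 0.012 and was below 0 in all 4 columns. SRX1, sulfiredoxin, which restores overoxidised peroxiredoxins, read -1.62 (fort) and -1.37 (faible) on slide 19, and -1.16 (fort) and -0.91 (faible) on slide 20. It was below 0 in every column, with a mean of -1.27 ± 0.154 and an adjusted p of 4.99e-04 in limma. PRX1, the mitochondrial peroxiredoxin, averaged -0.82 ± 0.097. Its columns were uneven, at -0.12 on slide 19 and -1.52 on slide 20 as scan means with the channel effect left in. TRX1, the other cytosolic thioredoxin, had -0.42 and TRR2, the mitochondrial reductase, -0.31, and neither passed (adjusted p of 0.0894 and 0.174).

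AHP1, a thiol peroxidase, depended on the scan. On slide 20 it read -0.73 in the fort column and -2.69 in the faible column. On slide 19 the fort column held exactly 0 as deposited and the faible column read -1.01 after centring. An exact 0 may be a failed or saturated spot, which the sources used here do not settle, so the fort value and the mean of AHP1 are uncertain. The mean of -1.10 ± 0.118 was called, but the fort columns alone gave -0.35 with an adjusted p of 0.418 in limma, and the faible columns alone -1.85.

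Among 15 measured genes of the glutathione system, 2 fell, and the list's median was -0.11. GPX2, a glutathione peroxidase, was the lowest gene of the comparison. It read -2.52 (fort) and -1.88 (faible) on slide 19, and -2.79 (fort) and -2.45 (faible) on slide 20. Its mean was -2.41 ± 0.433, a 5.31-fold fall if the base is 2, with an adjusted p of 4.64e-05 in limma, and no column came near 0. GRX2, a glutaredoxin, had a smaller mean of -0.63 ± 0.101, and its slide 19 columns lay near 0 before the channel effect was removed, the fort one being exactly 0 as deposited. ECM4 (-0.36) and GTT2 (-0.34), glutathione transferases, did not pass, nor did GSH1 (-0.16), the first enzyme of glutathione synthesis. In this list the falls were thus 1 peroxidase and 1 glutaredoxin, and neither GSH1 nor GSH2, the other synthesis gene, had a called change. With the channel effect left in, GSH2 read 0.075 on slide 19 and -0.045 on slide 20.

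Superoxide dismutase genes were lower, together with the gene of the copper chaperone of Sod1. SOD1, the copper-zinc superoxide dismutase of the cytosol, read -1.15 (fort) and -1.18 (faible) on slide 19, and -1.76 (fort) and -2.09 (faible) on slide 20. Its mean was -1.55 ± 0.182, or 2.92-fold lower if the base is 2. CCS1, which delivers copper to Sod1, averaged -0.54 ± 0.076, and SOD2, the manganese enzyme of mitochondria, -0.70 ± 0.320. Hence 3 of 10 measured genes of superoxide, catalase and copper functions fell, and the list's median was -0.30. YHB1, which removes nitric oxide, had -0.44, and CTR1, the copper importer, -0.32, without passing. The mean of YHB1 is uncertain in the way given for AHP1. Its fort column on slide 19 held exactly 0 as deposited, and slide 20 read -0.23 (fort) and -1.62 (faible).

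Further falls lay outside the peroxide and superoxide systems. YNL134C, a member of the alcohol dehydrogenase family, read -1.75 (fort) and -1.62 (faible) on slide 19, and -2.69 (fort) and -2.48 (faible) on slide 20. Its mean of -2.13 ± 0.051 was the second lowest, with an adjusted p of 3.96e-05 in limma. YLR108C, of unknown role, averaged -1.46 ± 0.415, and GRE2, a methylglyoxal reductase, -1.11 ± 0.005 over 2 features. YGP1, a secreted glycoprotein, averaged -1.12 ± 0.133, and HSP12, a small membrane-associated stress protein, -0.68 ± 0.225. These last genes were the only called members among 18 measured general stress genes, whose median was 0.001. YRO2, a plasma membrane protein, had -0.82 ± 0.161, and CDC26, a subunit of the anaphase-promoting complex, -0.79 ± 0.072.

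Electron transfer, iron and drug export were each represented by few genes. CYC1, cytochrome c isoform 1, was the only called gene of 29 respiratory genes measured, with a mean of -1.07 ± 0.034. The median of that list was -0.10 in BY4741, with 22 of 29 below 0, against 0.10 and 7 of 29 in BY4742. ISU2, a scaffold for iron-sulphur clusters, averaged -0.81 ± 0.074 over 2 features, which differed in size at -1.13 and -0.48. FIT3, which holds siderophore-bound iron in the cell wall, averaged -0.51 ± 0.108. No other gene passed of 16 measured in the Aft1 iron regulon, whose median was 0.05. DRE2, which acts in cytosolic iron-sulphur assembly, had -0.61 ± 0.101. PDR5, the main pleiotropic drug exporter, averaged -0.78 ± 0.034 and was the only call among 15 multidrug genes. SNQ2 (-0.47), TPO1 (-0.43), ATR1 (-0.21) and FLR1 (-0.16), also transporters, did not pass.

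The remaining falls lay between -0.49 and -0.62. They were ELO1 (fatty acid elongation), YHR140W, YRB30 (Ran binding), SLH1 (an RNA helicase), PRY1 (a secreted sterol-binding protein), YHR054C and PHO3 (an acid phosphatase). The slide 19 faible column of PHO3 was exactly 0 as deposited. With the channel effect left in, PHO3 read 0.32 on slide 19 and -1.30 on slide 20. ELO1 likewise read 0.11 and -1.345, PRY1 0.285 and -1.31, and HSP12 0.0 and -1.355. The calls of these genes thus rest on the channel correction. With no channel term only 2 of the 41 called genes passed. Over all 29 falls, 22 were below 0 in every column without that correction, and 25 on both slides as scan means. Several called genes, GRX2, ISU2, PHO3, PYC2 and SDS24 among them, have close paralogs, and these names are not a complete list. Signal shared between copies on the array was not tested for any called gene.

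Across a list of known Yap1 targets, 11 of 23 measured genes fell and none rose. The median was -0.47, and 19 of the 23 were below 0. Leaving out TRX2 and TRR1, which set the sign, 9 of 21 fell. The list was drawn up with earlier results of these data known and is not independent evidence.

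Of the 12 rises, GDH1 and HEM13 exceeded 1 in log2, and the others lay between 0.50 and 0.73. GDH1, the NADP-dependent glutamate dehydrogenase that assimilates ammonium, read 2.12 (fort) and 2.03 (faible) on slide 19, and 0.42 (fort) and 0.46 (faible) on slide 20. It was above 0 in every column, with a mean of 1.26 ± 0.118, a 2.39-fold rise if the base is 2, and an adjusted p of 4.99e-04 in limma. None of the other 12 measured genes of nitrogen and glutamate metabolism passed. HEM13, coproporphyrinogen oxidase, which is induced when oxygen or haem is low, read 1.77 (fort) and 1.67 (faible) on slide 19, and 0.61 (fort) and 0.56 (faible) on slide 20. Its mean was 1.15 ± 0.080, or 2.22-fold higher if the base is 2, with an adjusted p of 5.61e-04 in limma. HEM13 and CYC1, which moved in opposite directions, were the called members among 14 measured genes of haem and oxygen functions.

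ZRT1, the high-affinity zinc importer, averaged 0.59 ± 0.242, and GPD2, a glycerol-3-phosphate dehydrogenase that reoxidises NADH, 0.57 ± 0.009. GPD2 was above 0 on slide 19 (1.19) and slightly below it on slide 20 (-0.06) with the channel effect left in. KIN28, the kinase of the general transcription factor TFIIH, averaged 0.51 ± 0.111, and YNR014W, of unknown role, 0.50 ± 0.005.

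The other 6 rises lay in print blocks 10 and 11, of the 48 blocks in which the features were printed. SDS24 (0.73), PYC2 (0.70), a pyruvate carboxylase, and ERG1 (0.61), squalene epoxidase of ergosterol synthesis, are all in block 10. The median of that block was 0.278 in BY4741 and 0.054 in BY4742, and the other BY4741 blocks ran from -0.152 to 0.125. SIL1 (0.65), the nucleotide exchange factor of the chaperone Kar2, YDR061W (0.64) and PXP2 (0.51) are in block 11, with a median of 0.125. With each block centred on its own median, SDS24 had 0.37, PYC2 0.35 and ERG1 0.25, with adjusted p of 0.0567, 0.0619 and 0.126 in limma. YDR061W, PXP2 and YNR014W also missed the threshold then, and SIL1 had 0.44 with an adjusted p of 0.0476. Of the falls, 25 of 29 still passed with blocks centred, the exceptions being YRO2, GRX2, YRB30 and PHO3.

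**Figure D3:**
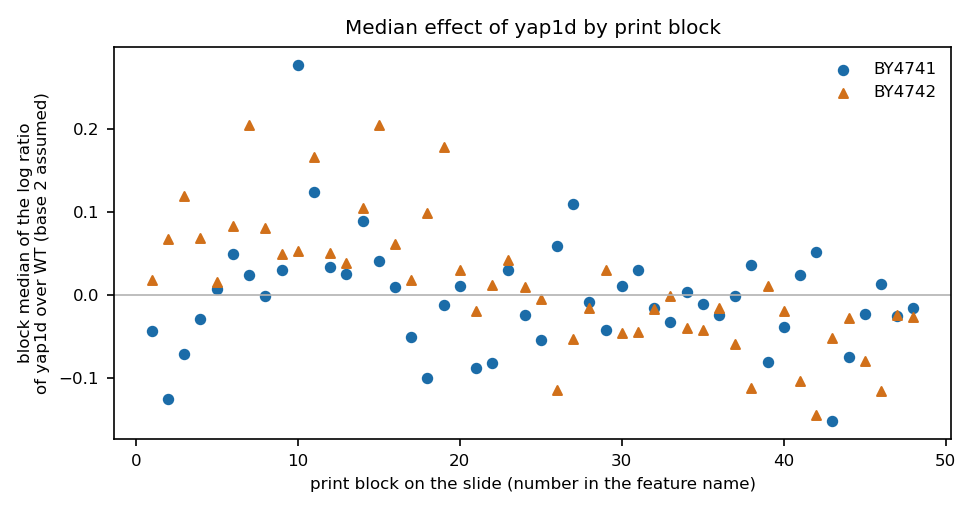
Median log2 ratio of yap1d over WT (vertical axis) of all features in each of the 48 print blocks of the slide (horizontal axis), in BY4741 (circles) and BY4742 (triangles). Block 10 stands apart in BY4741 at 0.278.

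Sulphur metabolism, in which BY4741 is defective, and ribonucleotide reductase, the target of the drug, held no called gene. Of 23 measured genes of sulphate assimilation, methionine and cysteine synthesis none passed, and their median was 0.038 in BY4741 and -0.001 in BY4742. The largest were STR3 (0.35) and CYS4 (-0.35), of the pathway between homocysteine and cysteine. None of 15 genes of ribonucleotide reductase and the DNA damage response passed either, with RNR2, a small subunit gene, at 0.22 and a list median of 0.048. The background percentages above are low, so lists of this size without a call are common: of 34 lists, 19 had none.

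All 4 measured a-specific genes were below 0 and none was called. MFA1 read -0.47 (fort) and -0.31 (faible) on slide 19, and -0.94 (fort) and -0.86 (faible) on slide 20. Its mean was -0.65, the SD of the corrected slides was 1.20, and its adjusted p was 0.253. MFA2 averaged -0.62 with an SD of 0.928 (adjusted p of 0.176). In both genes the SD is wide because the channel ratio itself differed between the backgrounds, as given above. The uncorrected scans were below 0 in all 4 BY4741 columns for both genes. After correction the slides differed in sign, with a median over the 4 a-specific genes of 0.121 on slide 19 and -1.13 on slide 20.

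**Figure D4:**
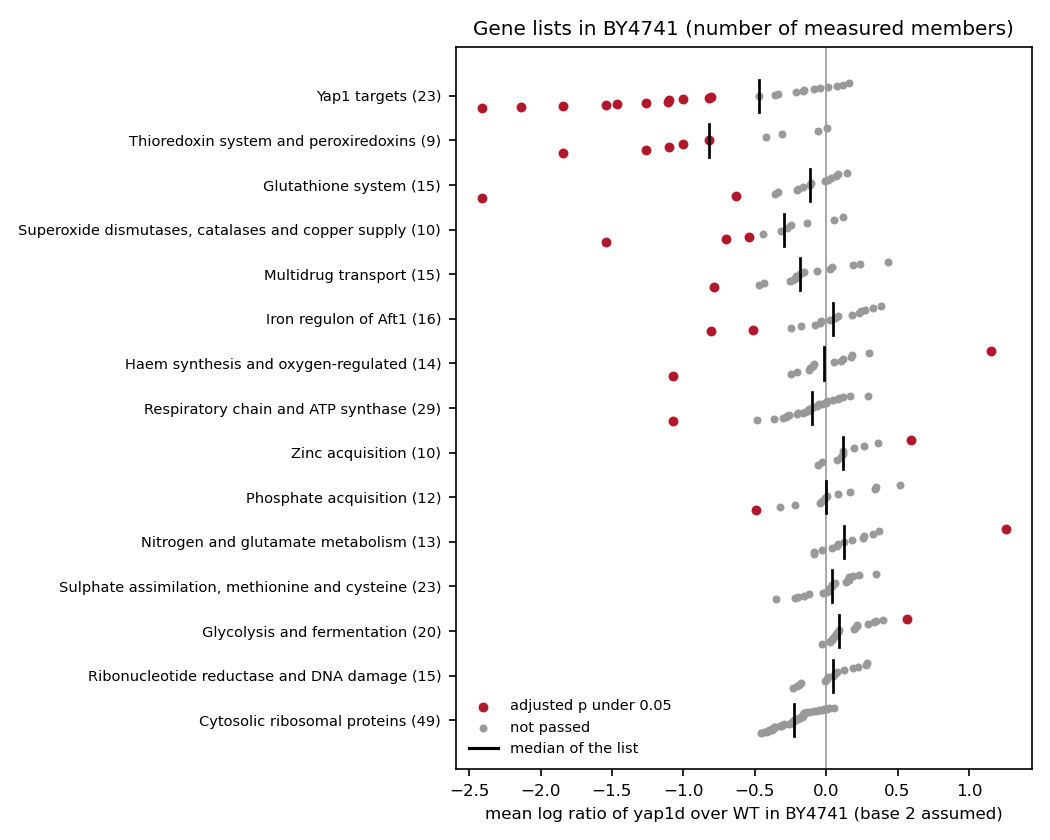
Mean log2 ratio of yap1d over WT in BY4741 (horizontal axis) for the measured members of 15 gene lists (vertical axis, number measured in brackets). Red points passed an adjusted p of 0.05, grey points did not, and bars are list medians. The Yap1 targets have 11 red points among 23, the thioredoxin system 5 among 9, and no other list shown has more than 3.

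Several gene classes sat off 0 by small amounts, with at most 1 called member when both scans were averaged. Of 49 cytosolic ribosomal protein genes, 46 were below 0, with a median of -0.225 in BY4741 and -0.036 in BY4742. The count below 0 was 46 on each corrected slide, and 26 of the 49 had an unadjusted p under 0.05, against 15.4% of all named genes. With the faible columns alone 17 of the 49 were called lower, and with print blocks centred 5. Over all 6695 units the lower calls in these settings were 192 and 58. The channel effect of these genes was large, with a median of 0.598, and its part in the result was not tested. The count of 46 on each slide is after its removal. The corrected slides share 1 mean and differ only by how far the channel effect differed between the backgrounds, so their counts do not replicate each other. With the channel effect left in, most of the 49 genes were above 0 on slide 19 and below 0 on slide 20. RPS2, for example, read 0.975 on slide 19 and -1.305 on slide 20. RPS21A, at -0.04 and -0.83, was below 0 on both. Of 48 mitochondrial ribosomal protein genes, 35 were below 0, with a median of -0.115. Glycolysis and fermentation genes were above 0 in 19 of 20 cases, with a median of 0.088 in BY4741 and -0.051 in BY4742, and only GPD2 was called. Some of them, such as TDH3 and ENO1, held exact zeros. Without features at exactly 0 the list had 12 genes and a median of 0.21 in BY4741, and the faible columns alone gave 0.19 over the 20. Their median channel effect was 0.621.

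The effect in BY4741 was then set beside that in BY4742, where the same fit called 39 named genes lower (1.25%) and 6 higher (0.192%). Both coefficients come from the same fit and share the channel term and the variance of each gene, so their calls are not independent. The signs of TRX2 and TRR1 in BY4742 were set by the choice of direction. Of the 29 falls in BY4741, 20 were called lower in BY4742 too, which is 69.0% of the BY4741 falls and 51.3% of the BY4742 falls. All 29 were below 0 in BY4742, where 1565 of all 3127 named genes were below 0. Of the 12 rises 2, HEM13 and YDR061W, were called higher in BY4742 too, which is 16.7% of the BY4741 rises and 33.3% of the BY4742 rises. Only 10 of the 12 rises had the same sign in BY4742. TRR1 averaged -1.0 in each background, and YNL134C -2.13 in BY4741 and -2.15 in BY4742. TRX2 averaged -1.85 in BY4741 and -1.29 in BY4742, and SRX1 -1.27 in BY4741 and -0.80 in BY4742. Neither difference passed (adjusted p of 0.301 and 0.319 in limma), though that of TRX2 did with the faible columns alone (-0.53, adjusted p of 0.0173).

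No named gene passed for the difference between the backgrounds (0.00% called). At an unadjusted p under 0.05 there were 395 (12.6%). The largest difference was in PHO89, a sodium-phosphate cotransporter. It averaged 0.52 ± 0.557 in BY4741 and -1.26 in BY4742, a difference of 1.78 with an adjusted p of 0.0575 in limma. All 4 BY4741 columns were above 0 and all 4 BY4742 columns below it. With features at exactly 0 left out, PHO89 passed with an adjusted p of 0.0216. It did not pass in limma with the fort columns alone (adjusted p of 0.681), equal spread (0.251) or print block medians removed (0.135). GDH1 averaged 1.26 in BY4741 and 0.35 in BY4742, and FIT3 -0.51 in BY4741 and -1.44 in BY4742, with adjusted p of 0.0795 and 0.0791. MF(ALPHA)2, a second gene of alpha-factor, had 0.05 in BY4741 and -1.55 in BY4742, with an adjusted p of 0.267, and its channel ratio differed between the backgrounds. MAL31, a maltose permease, had 0.34 in BY4741 and -0.60 in BY4742. In the other direction, UBX6 had -0.54 in BY4741 and 0.25 in BY4742, and YLR297W -0.71 in BY4741 and 0.09 in BY4742. MFA2 had -0.62 in BY4741 and 0.16 in BY4742, and MFA1 -0.65 in BY4741 and 0.11 in BY4742. NRT1, a transporter of nicotinamide riboside, had -0.75 in BY4741 and 0.00 in BY4742, though in BY4741 slide 19 read -1.29 and slide 20 -0.21. CDC26 had -0.79 in BY4741 and -0.23 in BY4742, with an adjusted p of 0.301 for the difference. With the faible columns alone all of these differences passed, and with values as deposited all but that of CDC26, both fits having an infinite prior. With the fort columns alone, equal spread or print block medians removed, no named gene passed for the difference. A gene called in 1 background and not in the other is therefore not shown to differ between them.

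**Figure D5:**
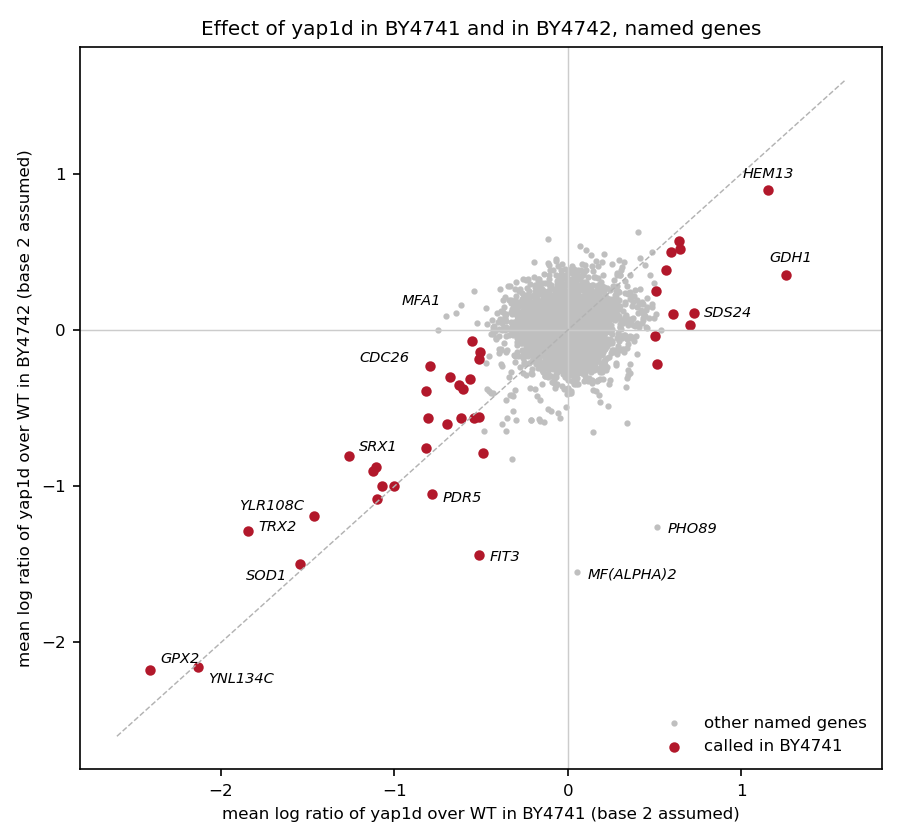
Mean log2 ratio of yap1d over WT in BY4741 (horizontal axis) and in BY4742 (vertical axis) for 3127 named genes. Red points are the 41 genes called in BY4741, and the dashed line marks equal values. GPX2, YNL134C, SOD1 and TRX2 lie low in both backgrounds, and GDH1 and FIT3 lie off the line.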

How the data were processed

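The authors deposited log2 ratios between the channels of each slide. Base 2 is assumed, and background correction and normalization are not given in the sources used here. Per the labels, RNA was extracted with an RNeasy kit and labelled indirectly. Of 6912 features, 3344 had 1 gene symbol (3343 matched the R64 reference table), 387 had several and 3181 had none here. For 207 genes more than 1 feature was averaged.

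Columns were set to a median of 0, both scans of a slide were averaged, and slides were turned to yap1d over WT. A linear model of all 4 slides had 1 coefficient for each background and a channel term (limma 3.58.1, lmFit with eBayes, two-sided, under R 4.3.3). The BY4742 slides serve to estimate the channel effect. P-values were adjusted by Benjamini-Hochberg over 6695 units. The fit was tested on simulated data, where the variance prior, drawn from 1 residual degree of freedom, was unstable between runs. The number of arrays limits the precision. Figures used matplotlib 3.10.9.

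Genes, gene lists and tests were chosen with earlier results of these data known. Named genes are the 15 largest falls and 10 largest rises among calls of 1 sign over both corrected slides, the 4 largest members of each list at most, up to 5 genes with the largest difference between backgrounds in each direction, and the strain markers. The other called genes and some list members were named after their values were seen. Promoter sequences were not used here, so a planned motif search was not made. Alternatives varied the scan, centring, scaling, print blocks, variance prior, features at 0, threshold and channel term.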

Additional observations from a re-analysis of the deposited data

How the results depend on the processing

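Counts of calls depended on the scan, the scaling and the variance model. The direction of the 41 genes called in BY4741 held under each setting run for them, but this is not independent support. Settings of the moderation, variance prior, threshold and channel term leave the mean unchanged, so its sign could not change there. The other settings reprocess the same slides for genes already picked by their call. The lower and higher counts in BY4741 of 29 and 12 became 10 and 2 with the fort columns alone, 100 and 77 with the faible columns alone, 10 and 2 with columns scaled to equal spread, and 16 and 3 with quantile normalization. They became 1 and 1 without moderation, neither of them among the 41, 16 and 2 at an adjusted p of 0.01, 2 and 0 with no channel term, and 424 and 543 with columns not turned, where the channel effect is counted. Values as deposited gave 41 and 50, and print block medians removed 37 and 11. The 45 calls in BY4742 became 9 (fort), 138 (faible), 114 (as deposited), 18 (equal spread), 27 (quantile), 2 (no moderation), 18 (adjusted p of 0.01), 0 (no channel term) and 942 (not turned). The difference between backgrounds, with 0 calls, had 73 with the faible columns, 15 as deposited, 2 without moderation, 1 with features at 0 left out and 1 with features tested singly. Of the called genes, 12 of 41 passed with the fort columns alone, 31 with block medians removed, 19 with quantile normalization, 2 (GPX2 and YNL134C) with no channel term and 0 without moderation. GPX2, YNL134C, TRX2, SOD1, SRX1, YGP1, GRE2, CYC1, TRR1, HEM13 and GDH1 passed under both scans, as deposited, and with blocks centred, equal spread, quantile normalization, a robust prior and an adjusted p of 0.01. Leaving out a slide leaves no residual degree of freedom, so it gives values and no test. No paired analysis was possible because the slides of the backgrounds share no numbers.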

Other observations

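The 16 chromosomes had median log2 ratios of -0.042 to 0.028 in BY4741, taken over the named genes on each.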
